A study of Mus musculus with 16 samples.

Results

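Chromosome contacts of mouse neural progenitor cells (NPCs) treated with siRNA against YY1 were compared with those of NPCs treated with control siRNA, at the Sox2 and Klf4 loci. The comparison holds 4 of the 16 samples of the series, 2 libraries in each group, assigned by their titles (YY1 knockdown and control knockdown). Both groups came from whole brains of newborn (P1) pups of a 129SvJae x C57BL/6 cross carrying Sox2-eGFP. The cells were grown as neurospheres, dissociated, and plated on coated dishes at 20000 cells per square centimetre. They then received 20 nM siRNA for 78 hours, with medium and siRNA renewed daily. Contacts were read by 5C after an in situ HindIII ligation. The growth text of the control libraries also names siRNA against YY1, so the control label rests on the titles. The level of YY1, and thus the depth of the knockdown, was not analysed here, nor were expression markers of NPCs. Untreated NPCs and embryonic stem (ES) cells, the latter grown in 2i or in serum medium, enter only through the authors' looping classes, their CTCF peaks and a list of window pairs.

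YY1 is a zinc-finger DNA-binding protein that can hold distant regulatory elements and promoters together by pairing with itself. CTCF is the DNA-binding protein at which cohesin-extruded loops most often stop. Sox2 encodes a transcription factor that pluripotent cells and neural progenitors share, whereas Klf4 encodes one that is typical of pluripotent cells. In 5C, forward and reverse primers anneal next to restriction sites, and a primer pair is amplified only where their fragments were ligated, so each count is a read of a contact between a chosen pair of fragments. The study asked how looping changes on neural commitment, and the siRNA experiment asked which contacts of NPCs differ when YY1 is targeted.

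Total counts were 5792078 and 6251316 for control siRNA and 4419309 and 12993781 for YY1 siRNA. Contacts of 32660 primer pairs were summed over non-overlapping 16 kb windows, 63 along the Sox2 locus (mm9 chr3:34108881-35104880) and 62 along the Klf4 locus (mm9 chr4:54899980-55887979). Windows are numbered from the start of each locus. Counts were corrected for each library's decay with distance, and these trend-corrected counts are the values per library given here. Across window pairs, the log2 values of the control libraries correlated at 0.933 and those of the YY1 libraries at 0.898. YY1 replicate 2 correlated with the controls at 0.921 and 0.932, while YY1 replicate 1 did so at 0.886 and 0.889, so YY1 replicate 1 stood apart from the other 3 libraries. A single primer pair held 4.14% of the Klf4 counts of YY1 replicate 1, against 1.11% to 1.30% in the others. The labels do not say whether replicates are separate cultures, so p-values measure the spread between these libraries only.

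The contacts of whole windows differed between the groups. Each window's contacts with all windows of its locus at least 3 windows away were summed and tested with edgeR's quasi-likelihood test, at a Benjamini-Hochberg adjusted p below 0.05. Of 123 windows tested, 20 (16.3%) passed. Each pair of windows enters the sums of both, so the window sums share counts and are not independent. Contacts of 13 windows fell with YY1 siRNA (10.6%) and those of 7 rose (5.69%). The falls ranged from 18.8% to 30.3%, the rises from 23.6% to 60.3%, and the median log2 fold change over all windows was -8.6e-05. At an unadjusted p below 0.05 edgeR had 40 windows (32.5%), 17 higher (13.8%) and 23 lower (18.7%). All 20 windows had no overlap between the libraries of the groups, against 34.1% of all windows lower and 26.8% higher without overlap. The 20 windows were called on these same libraries, so this lack of overlap is not separate support. The same holds for the partners and fragments of called windows given below. In the Sox2 locus, windows 1, 5, 14, 17, 20, 36 and 41 fell, and windows 51 and 58 rose. In the Klf4 locus, windows 2, 6, 7, 10, 11 and 53 fell, and windows 32, 43, 47, 50 and 62 rose. All 7 rises lay beyond the midpoint of their locus, with Klf4 window 32 starting at it, and 10 of the 13 falls before it. Over all Klf4 windows the median log2 fold change was -0.10 before the midpoint and 0.037 beyond it. Over all Sox2 windows these medians were 0.017 and 0.0058. Log2 fold change and position had a Pearson correlation of 0.38 at Klf4 and 0.13 at Sox2. The count depended on which libraries were used. It fell most without YY1 replicate 2, which leaves 1 YY1 library, and few of the 20 windows were then called. Thinning all libraries to the depth of the shallowest gave the same 20 calls. In all 10 alternatives the 20 windows kept their direction. The alternatives reuse these libraries, whose groups did not overlap in the 20 windows, so a kept direction is not separate support.

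**Figure D1:**
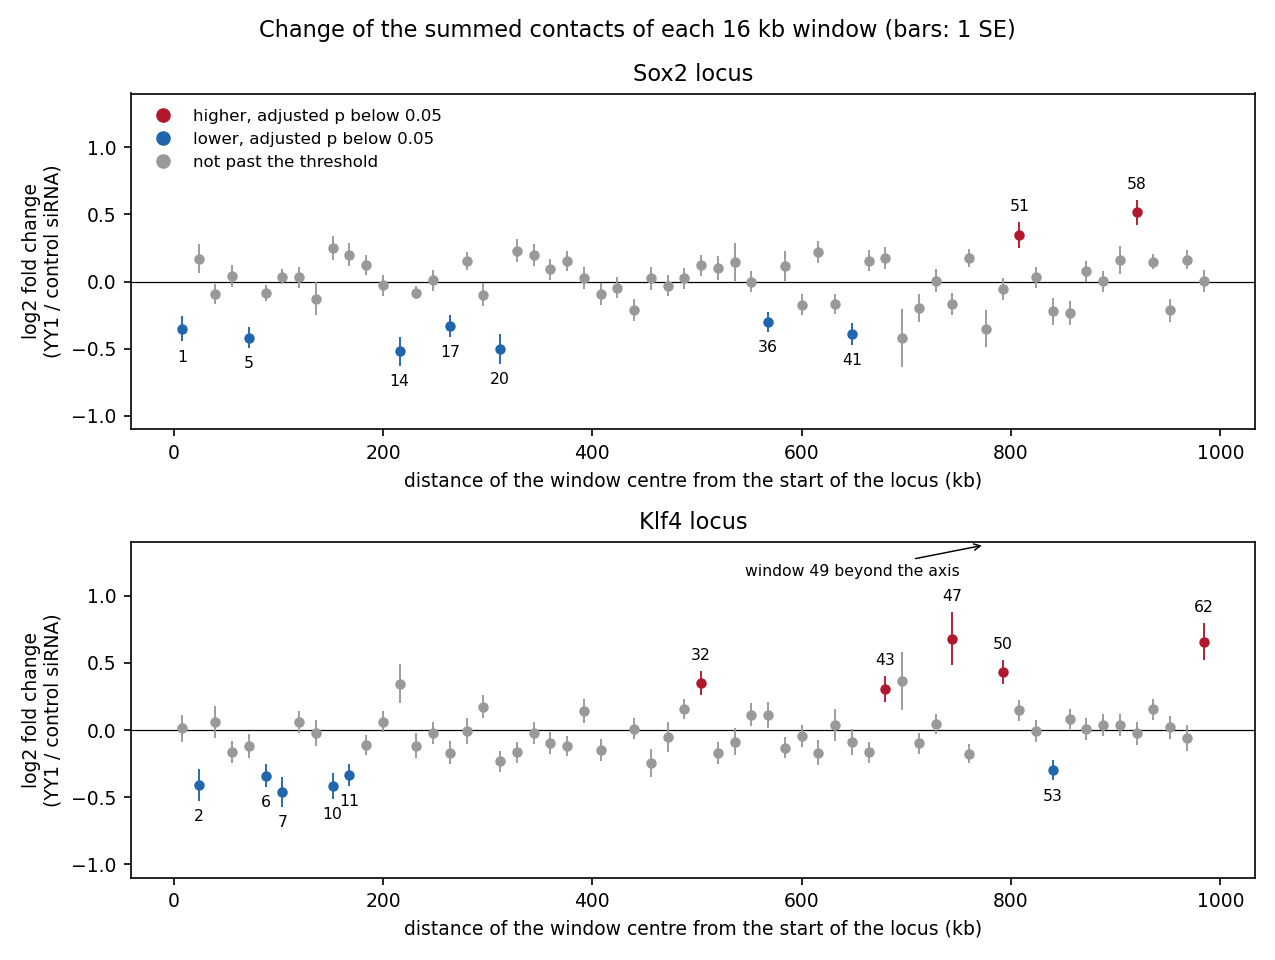
Log2 fold change (YY1 siRNA over control siRNA) of the summed contacts of each 16 kb window against its distance in kb from the start of the locus, with 1 SE from edgeR. Blue windows fell and red windows rose at an adjusted p below 0.05. The red points lie beyond the midpoint of each locus, and Klf4 window 49, at 1.70 with SE 1.98, is beyond the axis.

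In the Sox2 locus windows 5 and 58 tied for the smallest adjusted p, window 5 (chr3:34172881-34188880) among the falls and window 58 among the rises. Window 5 had 75016 and 78387 trend-corrected counts in the controls and 56297 and 58552 with YY1 siRNA. This window fell by 0.42 on the log2 scale (SE 0.077, edgeR adjusted p = 0.0073), and 47 of its 57 partner windows had a log2 fold change below 0, with 30 lower and 1 higher without overlap between the groups. Among all window pairs at least 3 windows apart, 50.1% were below 0, 20.6% were lower and 19.3% higher without overlap. It was the only called window with a CTCF peak of untreated NPCs, and it is an anchor of 2 of the authors' NPC only loop clusters. All 5 of its restriction fragments had lower counts in both YY1 libraries, so the fall did not rest on a single primer.

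Window 41 (chr3:34748881-34764880) had the highest trend-corrected counts of the named windows, 111617 and 106700 in the controls against 78926 and 87833. It fell by 0.39 (SE 0.083, edgeR adjusted p = 0.0087), with 48 of 57 partners below 0 and all 6 fragments lower on average. Sox2 window 14 (chr3:34316881-34332880) went from 36819 and 41020 to 23816 and 30436, a fall by 0.52 (SE 0.11, edgeR adjusted p = 0.0087). Without YY1 replicate 1 its log2 fold change was -0.34, and that of Sox2 window 20 moved from -0.50 to -0.31. The fall of window 14 came from 1 of its 3 fragments, which held 53.7% of the counts. The other 2 fragments were higher in both YY1 libraries, and without the first the log2 ratio was 0.55.

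At the far end of the Sox2 locus, window 58 (chr3:35020881-35036880) had 21402 and 24317 trend-corrected counts in the controls and 33235 and 32080 with YY1 siRNA. Its contacts rose by 0.51 (SE 0.093, edgeR adjusted p = 0.0073), and 42 of 55 partners were above 0. It holds a single fragment, so the window and the primer cannot be told apart. Window 51 (chr3:34908881-34924880) rose by 0.35 (SE 0.096, edgeR adjusted p = 0.022), from 23597 and 27201 to 30942 and 33688. All 3 of its fragments were higher on average.

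In the Klf4 locus, 4 of the 6 falls lay close together, in windows 6, 7, 10 and 11. Window 10 (chr4:55043980-55059979) had 20980 and 20231 trend-corrected counts in the controls and 15436 and 15440 with YY1 siRNA. It fell by 0.42 (SE 0.094, edgeR adjusted p = 0.010). Its neighbour, window 11 (chr4:55059980-55075979), went from 93901 and 88945 to 72766 and 72224, a fall by 0.33 (SE 0.080, edgeR adjusted p = 0.013). Window 7 (chr4:54995980-55011979) went from 9922 and 9808 to 6887 and 7432, and both of its fragments were lower in both YY1 libraries. In each of these windows the 2 YY1 libraries lay near each other and well under both controls.

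Among the Klf4 rises, windows 50 (chr4:55683980-55699979) and 62 tied for the smallest adjusted p. Window 50 had 58329 and 67366 trend-corrected counts in the controls and 83697 and 85828 with YY1 siRNA, and rose by 0.43 (SE 0.088, edgeR adjusted p = 0.0087). Of its 56 partners, 51 were above 0, and 4 of its 5 fragments were higher in both YY1 libraries. Window 62, the last of the locus and a single fragment, had 5922 and 5863 against 8112 and 10465 (log2 fold change 0.66, SE 0.14, edgeR adjusted p = 0.0087). Window 32 (chr4:55395980-55411979), near the middle of the locus, had 23871 and 25864 against 32179 and 31248. Window 47 was set by 1 library, with 78012 and 78350 in the controls against 164587 and 86107. Without YY1 replicate 1 its log2 fold change was 0.16 and its edgeR adjusted p 0.28.

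**Figure D2:**
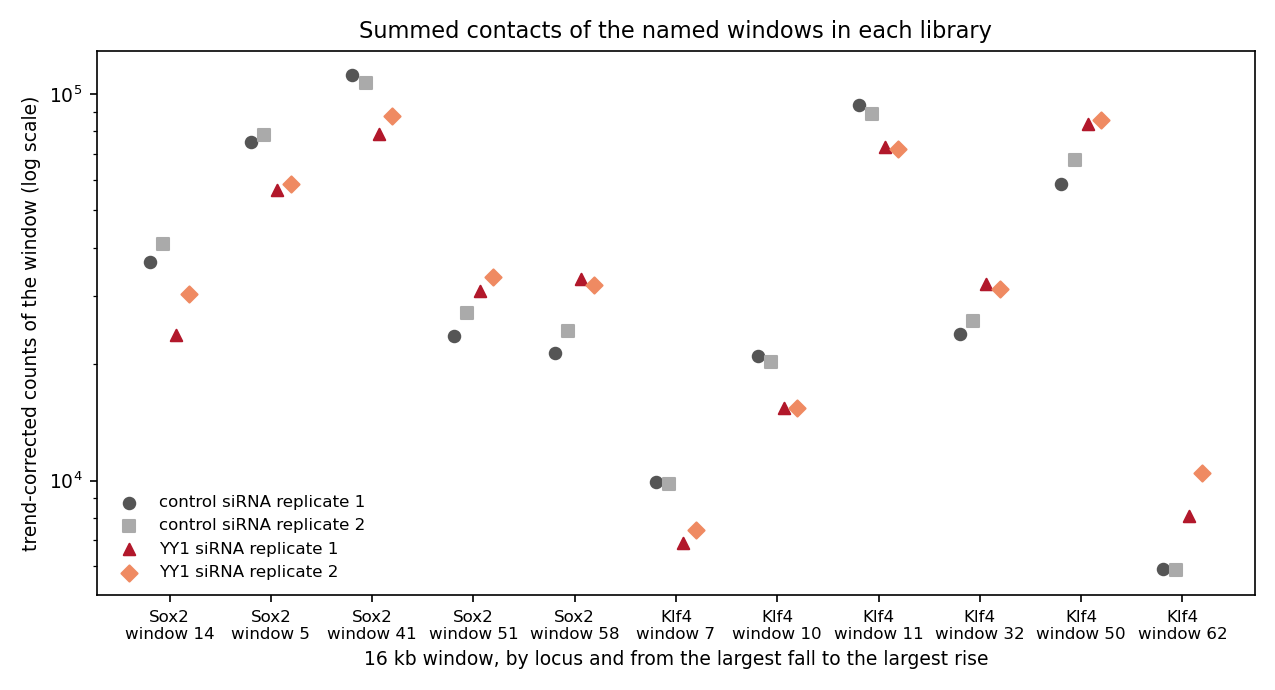
Trend-corrected counts (log axis) of 11 windows in each of the 4 libraries, ordered within each locus from the largest fall to the largest rise. Grey marks are control libraries and red or orange marks YY1 libraries. The groups do not overlap in any of these windows, and in Sox2 window 14 and Klf4 window 62 the YY1 libraries lie farthest apart.

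The 20 called windows held 68 fragments. Of these, 54 had a mean difference in the direction of their window, 46 of them without overlap between the groups, and 7 went the other way without overlap. Among all 511 fragments, 29.0% were lower and 29.4% higher with YY1 siRNA without overlap. Fragments of called windows are parts of the sums that were called, so this contrast is a description only. A single fragment made up 3 of the windows, and of the other 17 windows 15 kept their direction without their largest fragment. The exceptions were Sox2 window 14 and Klf4 window 43. Across the 123 windows, log2 fold change and mean GC content of the fragments had a Pearson correlation of -0.017, and log2 fold change and log count one of -0.18.

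Single pairs of windows did not pass. Of 3741 window pairs, edgeR called 0 (0.00%), with a smallest adjusted p of 0.14. At an unadjusted p below 0.05 edgeR had 366 pairs (9.78%), 171 higher (4.57%) and 195 lower (5.21%), and DESeq2 called 49. The libraries of the groups did not overlap in 19.8% of pairs that were higher and 21.3% that were lower. The common biological coefficient of variation was 0.376. Without YY1 replicate 2 edgeR called 27 pairs, and without each of the other libraries 0.

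**Figure D3:**
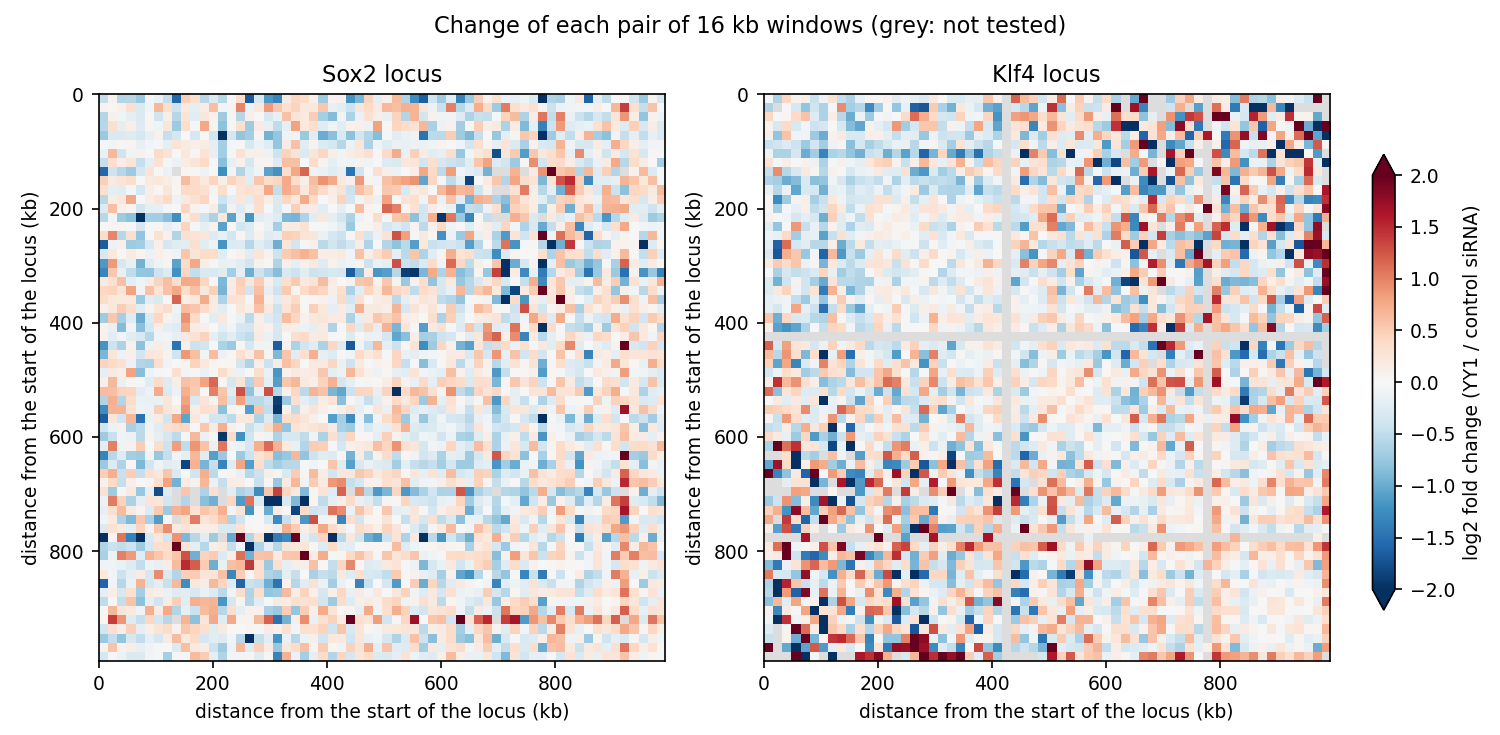
Maps of the log2 fold change (YY1 siRNA over control siRNA) of every tested pair of 16 kb windows, with both axes in kb from the start of the locus and the colours limited to -2 and 2. No single pair passed the threshold. Rows mostly of 1 colour are windows with most partners on the same side of 0, such as Sox2 window 58 (42 of 55 above 0) and Klf4 window 7 (36 of 51 below 0).

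Some of the pairs with the smallest p are named here after their values were seen, and none of them passed. Contacts of Sox2 window 17 with window 50, 528 kb away, had 1549 and 1088 trend-corrected counts in the controls and 297 and 311 with YY1 siRNA (log2 fold change -2.12, SE 0.37, edgeR adjusted p = 0.14). Window 17 with window 60, 688 kb away, had 2151 and 1755 against 251 and 649. Sox2 window 14 with its neighbour window 15 had 28557 and 26083 against 10428 and 15605. In the Klf4 locus, contacts within window 50 had 16963 and 18790 against 30445 and 33039 (log2 fold change 0.83, edgeR adjusted p = 0.14). Window 47 with window 50, 48 kb apart, had 3178 and 3612 against 5737 and 5762. Klf4 window 4 with window 11 had 3810 and 4440 against 1823 and 2205. The groups did not overlap in any of these pairs.

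The authors sorted 4 kb bin pairs (pixels) of the untreated cells into looping classes, and NPC only pixels are those that loop in untreated NPCs but not in ES cells of either medium. Their deposited interaction score equals -10 times the log2 of the same table's p-value to within 0.011, so a score of 43.2 marks the 0.05 level, and a higher score goes with a smaller deposited p-value. In the Klf4 locus, 27 NPC only pixels had a mean score of 36.2 and 29.3 in the control libraries and 16.5 and 16.6 in the YY1 libraries. In the Sox2 locus, 225 NPC only pixels had 26.0 and 27.7 against 18.7 and 23.8. The YY1 libraries were below both controls at each locus, by a mean of 16.2 (pooled SD 3.43) at Klf4 and 5.60 (pooled SD 2.72) at Sox2. The exact permutation test gave p = 0.33 for each, the smallest p that 2 libraries against 2 allow. Without YY1 replicate 1 the Sox2 difference shrank to -3.03, while the Klf4 difference stayed between -19.7 and -12.8 with any 1 library left out.

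Pixel by pixel, 40.5% of the 252 NPC only pixels were lower in both YY1 libraries than in both controls, and 12.7% were higher. At Sox2 the shares were 38.7% and 12.9%, against 20.4% and 20.4% of all bin pairs there. At Klf4 they were 55.6% and 11.1%, against 20.3% and 20.6%. Over all 54368 bin pairs with a score they were 20.4% and 20.5%, and the mean score per library was 13.8 to 14.0. A skew to lower scores at Klf4 was not particular to NPC only pixels. Of 58 Klf4 pixels in the 2i and serum class (ES cells of both media), 41.4% were lower and 17.2% higher. Serum only pixels at Klf4 had 26.9% and 3.85%, and constitutive pixels there had 10.3% and 27.6%. At Sox2 the 2i and serum class had 11.97% lower and 4.27% higher. Pixels of a cluster share fragments, so they are not independent. NPC only pixels with p below 0.05 made up 17.1% and 26.6% of the class in the controls and 3.97% and 9.52% with YY1 siRNA. Among all bin pairs the shares were 3.33% and 3.36% in the controls and 3.65% and 3.28% with YY1 siRNA. At Klf4 alone, NPC only shares were 37.0% and 29.6% against 0.0% and 18.5%, and at Sox2 14.7% and 26.2% against 4.44% and 8.44%. In untreated NPCs, whose scores come from a table normalised apart from this one, the same pixels averaged 59.1 and 55.2, and in the ES libraries 7.41 to 10.0. Plating density and ligation protocol also differed between the untreated and the siRNA-treated NPCs, and no test was made across the tables.

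**Figure D4:**
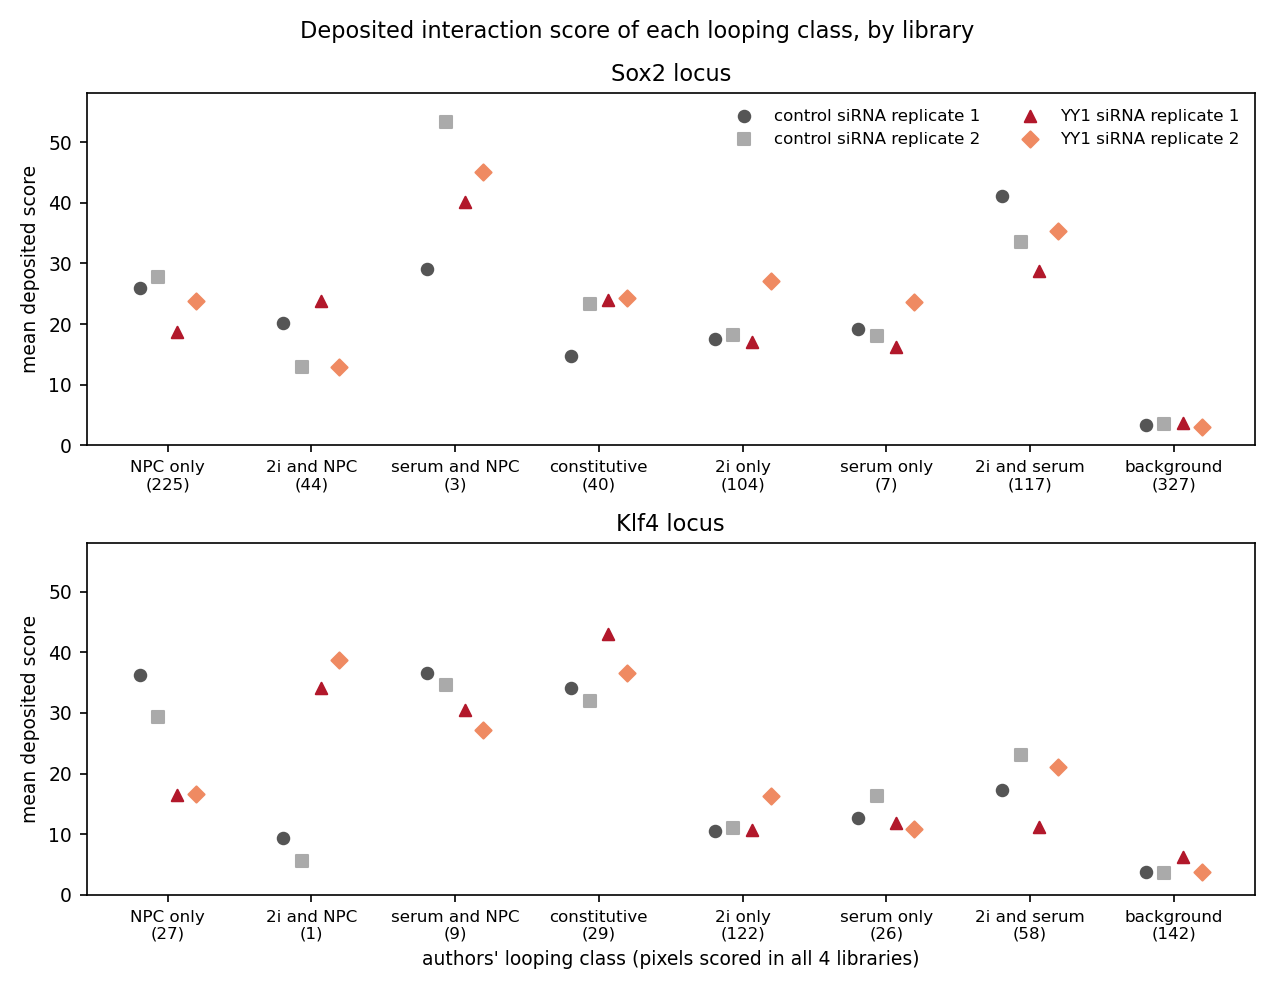
Mean deposited score of each looping class in each library, with the number of pixels scored in all 4 libraries under each class. In the NPC only class both YY1 libraries (red, orange) lie below both control libraries (grey) at each locus, and the constitutive class at Klf4 shows the opposite order.

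The NPC only pixels form 25 clusters, 24 of them scored. Mean scores were lower in both YY1 libraries in 10 clusters, higher in both in 6, and overlapped in 8. At Sox2 the split was near even, with 6 lower, 5 higher and 6 overlapping, and at Klf4 it was 4, 1 and 2. Over all 103 scored clusters, 21.4% were lower and 22.3% higher without overlap. The largest, Sox2 cluster 17, joins chr3:34328881-34364880 with chr3:34532881-34564880 over 50 pixels. Its mean scores were 19.1 and 24.7 in the controls and 10.3 and 15.0 with YY1 siRNA. Sox2 cluster 16, of 34 pixels, links chr3:34172881-34208880, which includes window 5, to chr3:34532881-34560880, and had 30.9 and 32.3 against 19.9 and 27.7. Cluster 15, of 27 pixels, runs from chr3:34552881-34576880 to chr3:34960881-35004880 and had 43.6 and 52.2 against 32.7 and 40.9. In all 3 of these clusters the YY1 libraries were lower. The next in size, cluster 14, of 17 pixels, had 18.5 and 14.6 against 20.2 and 21.0, the opposite order.

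Sox2 cluster 13 and Klf4 cluster 26 were singled out after their values were seen. Cluster 13 spans 644 kb, from chr3:34336881-34352880 to chr3:34980881-34996880, and its scores were 43.5 and 48.6 in the controls and 17.6 and 21.4 with YY1 siRNA. Klf4 cluster 26 joins chr4:54959980-54971979 to chr4:55243980-55247979 and had 52.6 and 57.2 against 29.1 and 35.3. The largest Klf4 cluster, number 33, of 7 pixels, had 56.2 and 26.4 against 19.6 and 13.6. Scores higher with YY1 siRNA were seen in Sox2 cluster 11, which reaches across 863 kb, with 12.4 and 8.46 against 25.2 and 27.7.

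Raw counts of the primer pairs under the same clusters did not pass the test. edgeR called 0 of 99 clusters of all classes (0.00%) and DESeq2 0, with 4 (edgeR, 4.04%) and 6 (DESeq2) at an unadjusted p below 0.05. Those 4 were all higher with YY1 siRNA, and none was an NPC only cluster. Of 23 NPC only clusters with counts, 7 were lower and 2 higher without overlap, against 14.1% and 19.2% of all clusters. For NPC only clusters of the Sox2 locus the median log2 fold change of counts was -0.13, with 12 of 17 below 0, against 0.13 and 17 of 40 below 0 for the other classes. For 6 NPC only clusters of the Klf4 locus it was 0.10, with 2 below 0, while the mean score of the class at Klf4 was lower in both YY1 libraries. Cluster 17 had 19680 and 15946 trend-corrected counts in the controls and 14479 and 14204 with YY1 siRNA (log2 fold change -0.31, SE 0.15, edgeR adjusted p = 0.84). Cluster 13 had 5813 and 5935 against 5199 and 4630 (log2 fold change -0.26, SE 0.17, edgeR adjusted p = 0.84). Klf4 cluster 26 had 1805 and 1488 against 1743 and 1531, with overlapping groups. Score and raw count were thus both lower without overlap in Sox2 clusters 17, 16 and 13. Counts overlapped between the groups in Klf4 clusters 33 and 26, and Sox2 cluster 12 had higher scores (11.9 and 13.8 against 16.1 and 19.1) and lower counts (1472 and 1371 against 1103 and 1047) with YY1 siRNA.

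**Figure D5:**
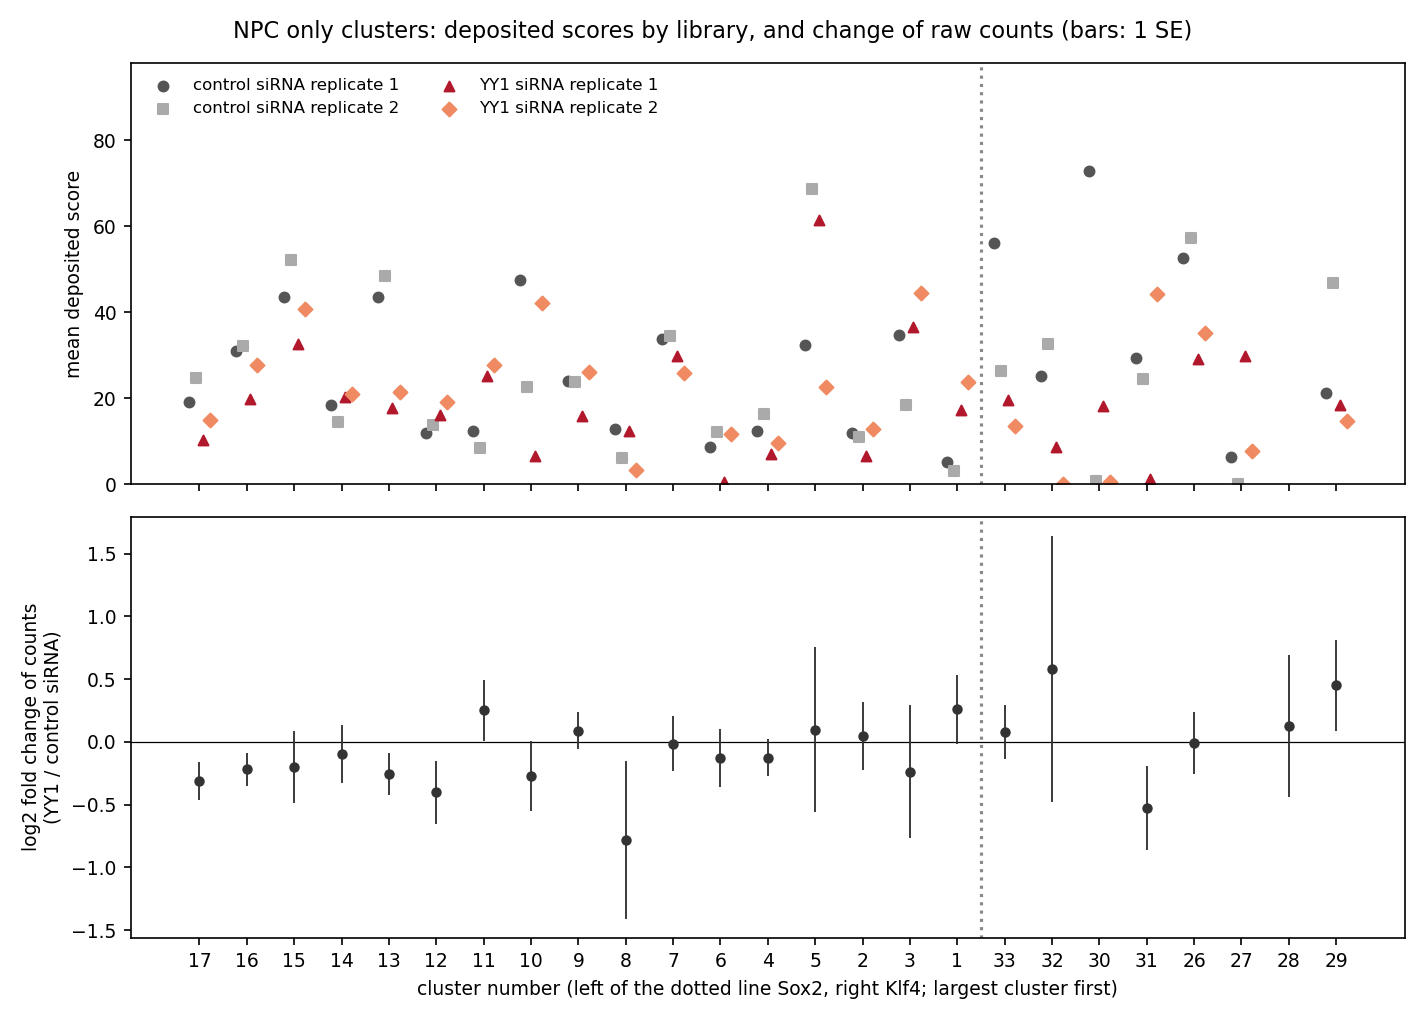
NPC only clusters of both loci, largest first: mean deposited score in each library (top) and log2 fold change of raw counts with 1 SE from edgeR (bottom). Sox2 clusters 17, 16, 15 and 13 have lower scores in both YY1 libraries, and no cluster passed the test on counts.

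Anchors of NPC only clusters were shared. In the Sox2 locus, 8 of 17 clusters have an anchor in window 28 (chr3:34540881-34556880) and 6 in window 15 (chr3:34332881-34348880). Window 28 had 84955 and 81468 trend-corrected counts in the controls and 75442 and 68334 with YY1 siRNA. Its log2 fold change was -0.21 (SE 0.084, edgeR adjusted p = 0.11), so it did not pass. Window 15 had a log2 fold change of -0.081 (SE 0.051, edgeR adjusted p = 0.27). Of the 37 windows with an NPC only anchor, 6 fell (16.2%) and 0 rose. In the 86 windows without one, 7 fell (8.14%) and 7 rose. Over all 123 windows, 10.6% fell and 5.69% rose. The loci differed. At Klf4, 4 of 14 windows with an anchor fell (28.6%), against 2 of 47 without one (4.26%). Among these 4, windows 6 and 7 count through the same cluster, number 30, which has 1 scored pixel. These 2 windows hold 1 and 3 NPC only pixels, against 16 and 29 of the 2i only class. Anchors of the ES classes were not compared. At Sox2, 2 of 23 with an anchor fell (8.70%), against 5 of 39 without one (12.8%). These differences between the groups of windows were not tested.

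The constitutive class, present in all 3 untreated cell states, had higher scores in both YY1 libraries than in both controls at each locus. At Klf4 the means were 34.1 and 31.99 in the controls and 43.0 and 36.6 with YY1 siRNA, over 29 pixels. At Sox2 they were 14.7 and 23.3 against 23.9 and 24.3, over 40 pixels, and the exact permutation test gave p = 0.33 for each. The Sox2 difference of 5.13 rested on control replicate 1, and was 0.81 without it and 9.44 without control replicate 2. The Klf4 difference of 6.79 was 3.56 without YY1 replicate 1. Scores of the 2i only class overlapped between the groups at both loci, with 17.5 and 18.2 against 17.01 and 27.1 at Sox2 and 10.5 and 11.01 against 10.8 and 16.3 at Klf4. Scores of the 2i and serum class also overlapped at both loci. They were 41.0 and 33.6 against 28.7 and 35.4 at Sox2, and 17.3 and 23.1 against 11.2 and 21.1 at Klf4. At Sox2 the control means of this ES class were thus above those of NPC only pixels, 26.0 and 27.7. In untreated NPCs, scored in a table normalised apart, the same Sox2 pixels averaged 15.9 and 9.79. Background pixels averaged 3.10 to 3.72 at Sox2 and 3.69 to 6.20 at Klf4. A class mean lower in both YY1 libraries than in both controls at both loci was thus seen for NPC only pixels among the 7 classes. The serum only and the serum and NPC classes showed this order at Klf4 alone.

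Window pairs that differ between untreated NPCs and ES cells were then followed in the siRNA libraries. Contacts called higher in NPCs than in ES cells in 2i (272 pairs or 14.0% at Sox2, 159 or 8.48% at Klf4) had a median log2 fold change of 0.013 with YY1 siRNA, and 48.3% were below 0. Those called lower in NPCs (14.6% at Sox2, 9.44% at Klf4, of which 451 pairs were tested in both experiments) had -0.043, with 53.0% below 0. The loci differed in sign for these, with a median of 0.035 and 48.2% below 0 at Sox2 and -0.12 and 61.1% at Klf4. The median over all 3741 pairs was -0.0014, and 50.2% were below 0. At Klf4, the 64 pairs called lower in NPCs than in ES cells of both media had a median of -0.26 with YY1 siRNA, with 45 below 0, and the 187 such pairs at Sox2 had -0.045, with 99 below 0. These values are given as a description, with no test.

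CTCF peaks of untreated NPCs lay in 12 of the 123 windows, 6 per locus, and 1 of those 12 windows was called, against 16.3% of all windows. The median log2 fold change was -0.033 for windows with a peak and 0.0038 for those without. For the 25 pairs at least 3 windows apart with a peak in both windows it was -0.10, with 14 below 0. At Sox2 it was -0.24 over 14 such pairs, and at Klf4 0.21 over 11.

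The decay of contacts with distance did not separate the groups. Slopes of log10 count on log10 distance at Sox2 were -0.690 and -0.686 in the controls and -0.676 and -0.694 with YY1 siRNA. At Klf4 they were -0.943 and -0.947 against -0.896 and -0.950, the value of -0.896 coming from YY1 replicate 1. The exact permutation test gave p = 1.0 at each locus. Contacts across boundaries between neighbouring windows, summed over squares of 10 by 10 windows, gave 0 calls by edgeR among 106 boundaries (0.00%), with a smallest adjusted p of 0.061. At an unadjusted p below 0.05 edgeR had 25 boundaries (23.6%), 14 higher (13.2%) and 11 lower (10.4%). Squares of neighbouring boundaries overlap and share counts, so neighbouring boundaries are not independent. Libraries did not overlap at 26.4% of boundaries that were higher and 21.7% that were lower. Of the boundaries at an unadjusted edgeR p below 0.05, all 10 at Sox2 were higher, and 11 of the 15 at Klf4 were lower. DESeq2 called 15, and edgeR called 13 without YY1 replicate 1 and 31 without YY1 replicate 2, so the count of boundaries turned on these libraries.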

How the data were processed

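The authors deposited raw counts per primer pair. The submitters' processing notes list Bowtie and the build mm9, without versions or filters. Fragment lengths and the GC fraction of each fragment come from the authors' primer list. The deposited scores and the deposited p-values are the authors' values per pair of 4 kb bins and library, with no model stated in the labels. The authors' CTCF peak lists (MACS2, per the submitters' processing notes) give a fold enrichment ratio and a −log10 q, which were not used beyond peak positions. A further 47 per-sample columns were not used.

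Fragments were placed by midpoint in 16 kb windows. As offsets, log(count + 0.5) was smoothed on log distance by loess (span 0.5), separately for each locus and library, and TMM factors were added. Tests used edgeR 4.0.16 (quasi-likelihood, filterByExpr defaults, group as the only term) in R 4.3.3, with DESeq2 1.42.0 as an alternative. Trend-corrected counts are counts divided by these offsets, and a standard error is the log2 fold change divided by the root of the F statistic. Cluster counts used fragment midpoints within bins widened by 6 kb on each side, an analysis added after the files were seen. Other steps ran in Python 3.11.15 (pandas 2.3.3, scipy 1.17.1, numpy 2.4.6). The functions were tested on simulated counts.

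Total counts were 4419309 to 12993781 per library, PCR reads without molecular identifiers. Chi-square divided by its degrees of freedom was 45.4 between the control replicates and 98.4 between the YY1 replicates, so no library was a duplicate and the spread between replicates was well above counting error. Windows were named by rule: per locus and direction, the 3 called windows with the smallest adjusted p, ties broken by the unadjusted p. No window pair met its rule. The comparison, lists and tests were chosen with earlier results of these data known. Alternatives covered the distance trend, the tool, the count filter, window size, thinning to equal depth and each library left out. No gene was placed in a window, as no mm9 annotation was used here.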

Additional observations from a re-analysis of the deposited data

How the results depend on the processing

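The 20 window calls numbered 19 with plain TMM scaling, 20 with 1 distance trend over both loci, 27 with DESeq2, 25 with no count filter and 20 after thinning. Leaving out 1 library gave 5 to 23 calls. For window pairs, edgeR called 0 in the main analysis, 1 with 32 kb windows and 0 to 27 with 1 library left out, while DESeq2 called 49 with the same offsets and 52 with its own size factors. Boundaries numbered 1 with plain TMM scaling, 1 with a single trend, 1 with no filter, 15 with DESeq2 and 0 to 31 with 1 library left out. The difference of decay slopes fitted over longer distances was 0.020 at Sox2 and 0.097 at Klf4, against 0.0028 and 0.021. The NPC only score difference over both loci pooled was -6.74, against -16.2 at Klf4. For pairs called against both ES media the median log2 fold change was 0.046 for those higher in NPCs and -0.078 for those lower, and leaving out 1 library gave -0.11 to -0.033 for pairs called lower against 2i. The causes were not tested. Loop clusters gave 0 calls in every setting run.

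The labels do not say whether equal replicate numbers mark paired libraries, and the main fit had no block. Same-numbered deviations correlated at 0.046, which cannot decide whether the libraries were paired. With the number as a replicate block, edgeR called 73 window pairs (26 higher, 47 lower), 34 window totals and 0 boundaries. Pairs in the farthest distance class had a median count of 265, and the window calls after thinning to the shallowest library were the same 20.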
